A study of Hordeum vulgare with 10 samples.

Results

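The genes described here are the 59 barley genes whose transcript level was lowered in both roots and shoots after 1 h of heat. They were chosen from the deposited group means as genes with a MLOC number that is listed in both the root and the shoot table, with a control mean of 50 normalized counts or more in each tissue and a heat over control ratio of at most 0.4 in each tissue. The ratio is the heat mean plus 1 divided by the control mean plus 1, and it is given below as a percent of control. Of 24312 genes in both tables, 24211 carried a MLOC number and 10767 of these had a control mean of at least 50 in both tissues. The phosphate-related genes of the study were to be left out, but 0 of the 10 that could be looked up met the rule.

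Plants of the spring barley (Hordeum vulgare) cultivar Rolap were used at an age of 2 weeks. Heated plants were kept at 35.5 °C for 1 h and control plants at a constant 22 °C. RNA sequencing covered 2 heated and 2 control root samples and 3 heated and 3 control shoot samples. The study itself concerned genes of phosphate uptake and transport. In bulk roots and shoots, fewer cells of a type and less RNA per cell cannot be told apart.

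In plants, a sudden rise in temperature activates heat shock transcription factors, and within minutes transcripts of chaperones such as the heat shock proteins accumulate. At the same time many other transcripts decline, because their genes are transcribed less, because their mRNA is degraded faster, or both. A level measured at a single time does not separate these routes. A transcript that falls in roots and in shoots does so in organs that differ in function and in the genes they express.

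The tables give only group means, but every root mean and 99.0% (heat) and 99.2% (control) of the shoot means above 0 could be resolved into the read numbers of each library. For all 59 genes a single split existed in each of the 4 groups. The libraries recovered in this way can be told apart by their size factor, the number that the read counts of a library were divided by, and they carry no replicate letter. Reads recovered in genes were 16021844 to 16828645 per library in roots and 6732731 to 8546582 in shoots. Counting the shoot genes that were not resolved at their group mean times the size factor gives 14741805 to 16748563 in shoots. Hsp90.1, a cytosolic chaperone known for its strong induction by heat, had a mean of 196171 normalized counts in heated roots against 163 in control roots, and of 30076 in heated shoots against 51.0 in control shoots. The gene model of the phosphate transporter PHT1;1, a marker of roots, cannot be told apart from its identical copies PHT1;2 and PHT1;9. It had 77 and 90 reads in the heated root libraries, 982 and 989 in the control root libraries, and 0 in all 6 shoot libraries.

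The numbers of the 59 genes could not be paired with gene names. None of them was found in the RefSeq barley gene table, which holds 58438 genes under other numbers, and none carried a note in the deposited tables. Their products are therefore left unnamed, no sequence of them is printed, and each is described by its level in the 4 groups of libraries. Gene lengths were not at hand, so that a higher count of one gene than of another is a matter of reads and not of transcript number.

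The selection asked for a large fall in each tissue, and the sizes of these falls are given as a description without a test. In roots the 59 genes were left at a median of 26.5% of control, with quartiles of 18.3% and 33.5% and a range of 4.16% to 39.9%. In shoots the median was 28.99%, the quartiles were 22.7% and 34.3% and the range was 1.87% to 39.3%. Among all 10767 genes with a control mean of at least 50 in both tissues, the median was 103% of control in roots and 99.1% in shoots. In roots 4 of the 59 genes were under 10% of control and 19 were under 20%, whereas in shoots 1 was under 10% and 7 were under 20%. Summed over the 59 genes, the normalized counts were 20298 in heated roots against 82624 in control roots, and 9554 in heated shoots against 36390 in control shoots. The 59 genes took 0.105% of the gene-assigned normalized reads in heated roots and 0.597% in control roots, and 0.0568% in heated shoots and 0.253% in control shoots.

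Of the genes with a control mean of at least 50 in the tissue concerned, 6.40% were lowered to 0.4 or less in roots (956 of 14944) and 2.17% in shoots (267 of 12290). Among the genes with such a mean in both tissues, 0.548% met the rule in both. The 59 genes make up 14.7% of the 401 genes that were lowered in roots while measurable in control shoots, and 31.1% of the 190 genes that were lowered in shoots while measurable in control roots. The other 342 genes of the root list were left at a median of 68.4% of control in shoots, and the other 131 genes of the shoot list at a median of 70.7% in roots. Of the 401 genes, 51 had a shoot level at or above control, and of the 190 genes, 26 had a root level at or above control.

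**Figure D1:**
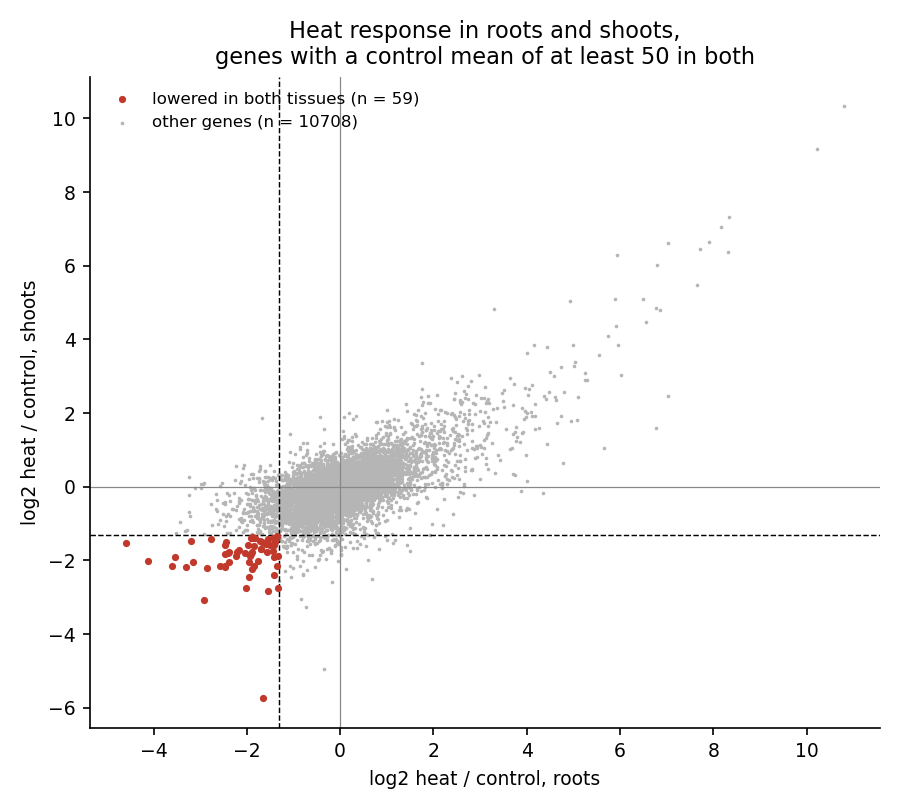
The log2 ratio of heat over control in roots (x axis) is plotted against that in shoots (y axis) for each of the 10767 genes with a control mean of at least 50 in both tissues. The 59 genes (red) fill the corner below both dashed lines, which mark the ratio of 0.4, and MLOC_11896 lies far below the others in shoots.

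In the single libraries, every heated root library was below every control root library for all 59 genes, and the same held for the 6 shoot libraries. Over all genes with a control mean of at least 50 in both tissues, the libraries were apart in this direction for 34.4% in roots and for 27.9% of the 10648 genes that could be compared in shoots. Nothing is read from the difference, since the rule used these values. The narrowest gap in roots was that of MLOC_56441, whose lowest control library was 1.68 times its highest heated library. In shoots it was that of MLOC_68803, with a factor of 1.22. The median gap over the 59 genes was 3.10 in roots and 2.37 in shoots.

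The falls in roots were the largest for MLOC_29817, MLOC_64838, MLOC_150 and MLOC_13752. The transcript of MLOC_29817 had 18.7 and 38.2 normalized counts in heated roots, against 620 and 794 in control roots, so that the heat mean of 28.5 ± 13.8 was 4.16% of control (control mean 707 ± 123, SD, n = 2 each). In shoots the same gene had 35.9, 43.1 and 89.5 normalized counts in heated plants, against 159, 165 and 171 in control plants, or 34.5% of control. The fall was thus much deeper in roots, and in heated shoots 1 library stood at about 2 times the level of the others while still below all control libraries.

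MLOC_64838 had 8.20 and 5.98 normalized counts in heated roots, against 127 and 153 in control roots, which is 5.75% of control. In heated shoots its values were 14.4, 16.2 and 24.1, against 61.1, 72.8 and 94.6 in control shoots, or 24.9% of control. MLOC_64838 had few reads in both tissues, and its root value in heat rests on 7 and 5 reads.

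MLOC_150 was the gene with the largest spread between libraries of one group among the 59. It had 5.86 and 2.39 normalized counts in heated roots, from 5 and 2 reads, against 64.7 and 57.8 in control roots, or 8.23% of control. In heated shoots it had 53.4, 77.6 and 200 normalized counts (mean 110 ± 78.5, SD, n = 3), against 527, 543 and 424 in control shoots (mean 498 ± 64.96, SD, n = 3), or 22.3% of control. The highest heated shoot library was more than 3 times the lowest, and the 3 control shoot libraries lay close together.

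MLOC_13752 had 32.8 and 38.2 normalized counts in heated roots, against 438 and 409 in control roots, which is 8.61% of control. In shoots it had 146, 101 and 197 in heated plants, against 469, 515 and 693 in control plants, which is 26.6% of control. The root libraries of this gene agreed closely within each condition, and the shoot libraries spread more widely in both. MLOC_78575 and MLOC_52070 followed in roots with 10.1% and 10.95% of control, and had 22.0% and 36.0% in shoots.

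**Figure D2:**
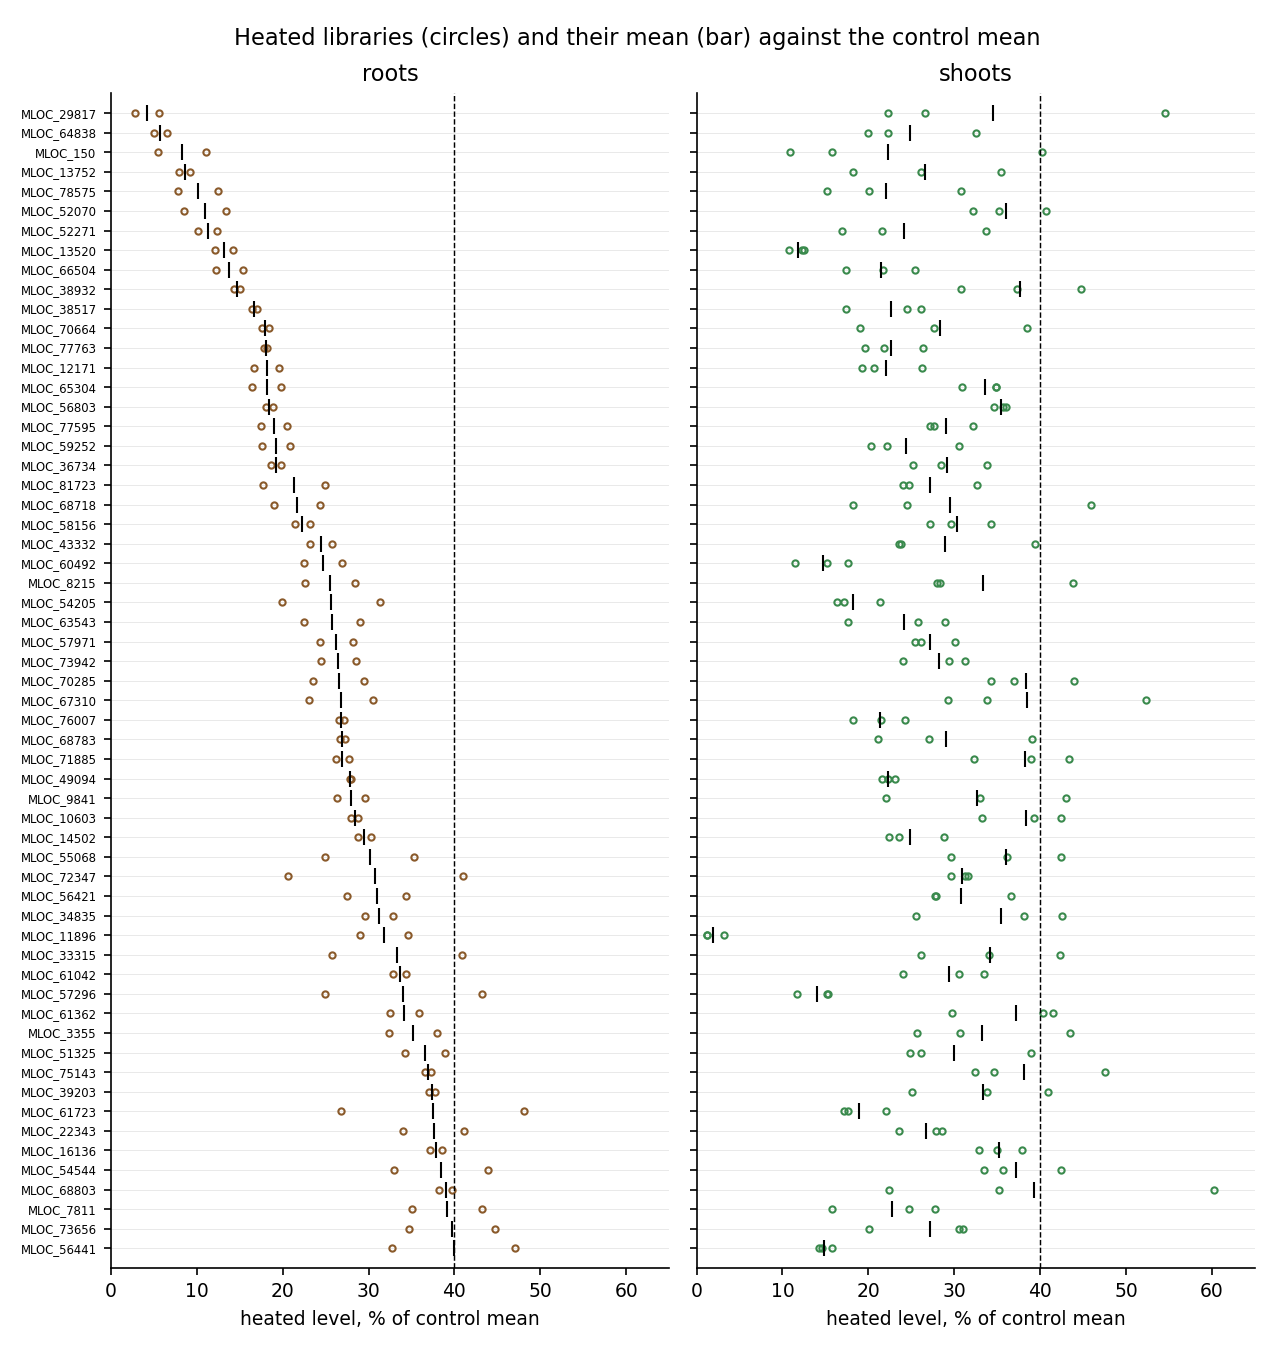
For each of the 59 genes, ordered by the ratio in roots, circles show the heated libraries as a percent of the control mean (x axis) in roots (left, n = 2) and shoots (right, n = 3), bars show the ratio of the group means, and the dashed line marks 40%. The root ratios run from 4.16% for MLOC_29817 at the top to 39.9% for MLOC_56441 at the bottom, and the shoot ratios do not follow the same order.

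In shoots the deepest fall was that of MLOC_11896. It had 1.03, 1.08 and 4.59 normalized counts in heated shoots, from 1, 1 and 4 reads, against 167, 179 and 169 in control shoots, or 1.87% of control. In roots it had 18.7 and 15.5 normalized counts in heated plants, against 66.3 and 45.7 in control plants, or 31.8% of control. The transcript was close to the limit of detection in heated shoots and remained readily counted in heated roots.

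MLOC_13520 was lowered to a similar degree in both tissues. In heated roots it had 28.1 and 23.9 normalized counts, against 211 and 197 in control roots, or 13.2% of control. In heated shoots it had 477, 416 and 486, against 3280, 3802 and 4607 in control shoots, or 11.8% of control. This gene combined the second-lowest shoot ratio with one of the highest control counts in shoots.

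MLOC_57296 had 16.4, 21.6 and 21.8 normalized counts in heated shoots, against 108, 219 and 116 in control shoots, or 14.1% of control. In heated roots it had 177 and 102, against 323 and 499 in control roots, or 34.0% of control. The heated shoot libraries were close to each other, while 1 control shoot library had about 2 times the level of the other two. MLOC_60492 (14.7% of control in shoots, 24.7% in roots) and MLOC_54205 (18.2% and 25.6%) also fell further in shoots.

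MLOC_56441 was the gene that lay closest to the ratio limit in roots. It had 210 and 301 normalized counts in heated roots, against 507 and 776 in control roots, or 39.9% of control. In heated shoots it had 352, 316 and 326, against 2015, 2662 and 2017 in control shoots, or 14.9% of control. The spread between the root libraries of one condition was large relative to the fall in roots, whereas the heated shoot libraries were close to each other and far from the control libraries.

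**Figure D3:**
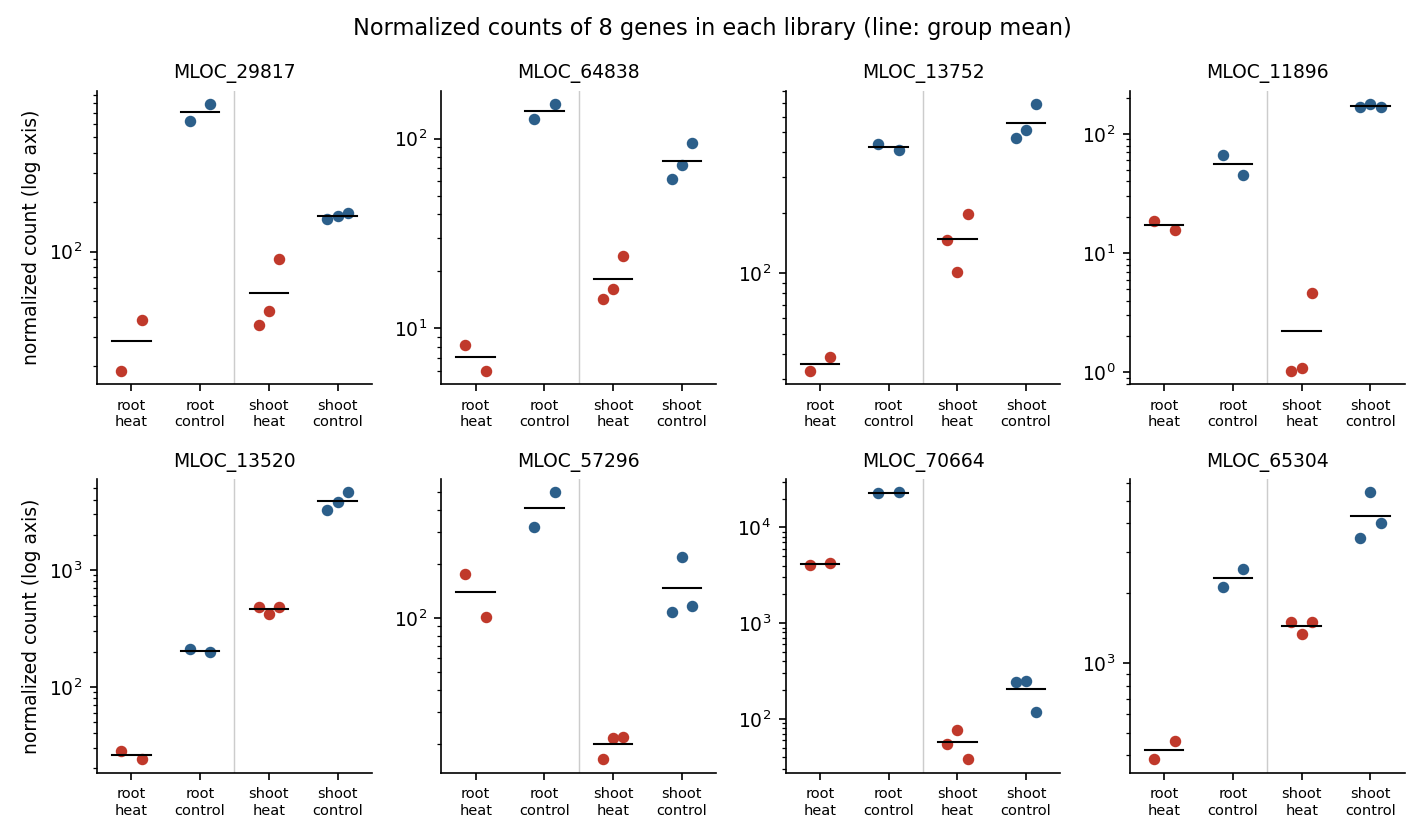
Normalized counts (log axis, with a scale of its own in each panel) of 8 genes in each library are shown for heated and control roots (n = 2 each) and heated and control shoots (n = 3 each), with lines at the group means. Heated libraries (red) are below control libraries (blue) of the same tissue in every panel; root and shoot values come from tables that were normalized separately.

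The rule held both ratios of the 59 genes at 0.4 or less. Differences between the tissues are therefore described without a test, and the counts were made for the 59 genes only. The ratio was lower in roots for 38 genes and lower in shoots for 21, with a median difference of -0.18 on the log2 scale (roots minus shoots). For 35 genes the log2 ratios were within 0.5 of each other. Differences of more than 1 on the log2 scale were found for 8 genes with the lower ratio in roots, led by MLOC_29817, MLOC_64838 and MLOC_52070, and for 3 genes with the lower ratio in shoots, which were MLOC_11896, MLOC_56441 and MLOC_57296. Across the 59 genes Spearman's rho between the log2 ratios was 0.21 and Pearson's r was 0.01, against a rho of 0.57 across the 10767 genes with a control mean of at least 50 in both tissues. The rule limits both ratios to at most 0.4, which by itself lowers a correlation among the 59 genes, and genes of one library are not independent of each other, so that nothing is read from these values.

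Among the 59 genes, MLOC_70664 took the most reads in control roots. It had 4033 and 4210 normalized counts in heated roots, against 22661 and 23201 in control roots, or 18.0% of control. In heated shoots it had 55.4, 77.6 and 37.9, against 242, 251 and 117 in control shoots, or 28.4% of control. The root libraries were nearly equal within each condition, and in shoots the same gene was scarce, with 1 control library well below the other two.

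MLOC_34835 had 2215 and 2460 normalized counts in heated roots, against 7157 and 7832 in control roots, or 31.2% of control, and was at 35.4% of control in shoots. MLOC_77595 had 929 and 796 in heated roots, against 4795 and 4298 in control roots, or 19.0% of control, and was at 28.99% in shoots. MLOC_54544, the fourth gene by reads in control roots, had many reads in both tissues, with 1388 and 1848 normalized counts in heated roots, against 3575 and 4845 in control roots, and with 886, 947 and 1126 in heated shoots, against 2456, 2570 and 2930 in control shoots. Its ratios of 38.4% in roots and 37.2% in shoots were both close to the limit of the rule.

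In control shoots the most reads were those of MLOC_65304, with 1507, 1336 and 1505 normalized counts in heated shoots, against 3478, 5447 and 4037 in control shoots, or 33.6% of control. The same gene had 384 and 463 in heated roots, against 2127 and 2547 in control roots, or 18.2% of control. MLOC_43332 had 724, 733 and 1212 in heated shoots, against 2903, 3134 and 3196 in control shoots, or 28.9% of control. In both genes the heated libraries were well separated from the control libraries, although 1 heated library of MLOC_43332 was above the other two.

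The genes next to the limits of the rule show how it cuts a continuous range. On the ratio in roots, MLOC_56441 (39.9%) and MLOC_73656 (39.7%) were just inside, and MLOC_57518 (40.1%) and MLOC_24097 (40.5%) were just outside. On the ratio in shoots, MLOC_68803 (39.3%) and MLOC_67310 (38.5%) were just inside, and MLOC_1317 (40.8%) and MLOC_5449 (40.9%) were just outside. On the control mean in roots, MLOC_61723 (50.7 normalized counts) and MLOC_11896 (56.0) were inside, and MLOC_50966 (40.04) and MLOC_60720 (37.1) were outside. On the control mean in shoots, MLOC_3355 (51.0) and MLOC_36734 (53.0) were inside, and MLOC_11635 (49.8) and MLOC_1528 (48.9) were outside. The genes outside met every other part of the rule.

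Of the 10 phosphate genes of the study, 3 were below the ratio limit in roots and none in shoots. The phosphate exporter gene PHO1 was at 22.4% of control in roots, below the ratio limit, but at 71.9% in shoots, where its control mean was only 10.3. SPX-MFS, which encodes a protein with an SPX domain and a transporter domain, was at 25.7% of control in roots and at 115% in shoots. The model of PHT1;1 and its identical copies was at 12.04% of control in roots and had no reads in shoots. PHO2, a ubiquitin-conjugating enzyme that limits phosphate uptake, had lower means in heat in both tissues, at 68.2% of control in roots and 77.5% in shoots, and SIZ1, a SUMO ligase, was at 87.7% and 85.4%. PHT1;4 was at 57.4% of control in roots, with 0 to 2 reads in the heated shoot libraries. PHT1;6 was at 59.3% of control in roots and at 113% in shoots. The transcription factor PHR1 was at 105% in roots and 111% in shoots, and PHR2 at 103% and 93.4%. NLA, an E3 ubiquitin ligase, had higher means in heat in both tissues, at 278% of control in roots and 127% in shoots. From its own test of the sequencing data, the paper reports NLA as raised in roots and, in shoots, only PHO2 as changed.

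Between the tissues of control plants the 59 genes could be tested, since the rule did not use this contrast beyond asking for a control mean of at least 50 in each table. The recovered reads of all 10 libraries were scaled by TMM and compared by the quasi-likelihood test of edgeR, with Benjamini-Hochberg adjustment of the p-values over the 19016 genes tested. At an adjusted p under 0.05, 22 of the 59 genes were higher in control roots than in control shoots, 22 were lower and 15 were not called. Of all genes tested, 38.6% were higher and 35.6% were lower. Of the 10648 genes with a control mean of at least 50 in both tables, 30.1% were higher and 40.1% were lower. The 59 genes were thus split evenly between the tissues, with shares near those of all genes tested. The 10648 genes, which share the control minimum of the rule, were more often lower than higher in control roots. The difference between the 59 genes and this set was not tested.

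The median log2 difference of control roots over control shoots was 0.11 for the 59 genes and 0.08 for all genes tested. For the 10648 genes with a control mean of at least 50 in both tables it was -0.09. The quartiles for the 59 genes were -1.26 and 1.27, with 7 genes more than 4-fold higher and 10 genes more than 4-fold lower in control roots. When the libraries were scaled to their total reads in genes instead, the median over all genes was 1.40, and 39 of the 59 genes were higher, 10 were lower and 10 were not called. With this scaling, 13911 of all 19016 genes tested were higher and 3455 lower. Of the 10648 genes, 8191 were higher and 1498 lower. The balance between the tissues therefore depends on the scaling, and the differences given here are relative to the median gene.

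MLOC_70664 showed the largest difference towards roots. In CPM (counts scaled to the library size, after TMM scaling) it had 1415 and 1453 in control roots, against 36.6, 37.9 and 17.7 in control shoots, a log2 difference of 5.54 (SE 0.257, adjusted p = 6.76e-11, edgeR). MLOC_77595 had 299 and 269 CPM in control roots, against 16.4, 30.8 and 8.80 in control shoots (log2 3.92, SE 0.288). MLOC_34835 had 447 and 491 CPM in control roots, against 58.8, 49.5 and 31.6 in control shoots (log2 3.32, SE 0.205). All 3 genes kept the same order of tissues in heated plants, with log2 differences of heated roots over heated shoots of 4.82, 3.27 and 3.07.

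MLOC_13520, MLOC_43332 and MLOC_61723 differed most in the other direction. MLOC_13520 had 13.2 and 12.4 CPM in control roots, against 497, 574 and 698 in control shoots, a log2 difference of -5.53 (SE 0.176, adjusted p = 1.195e-12, edgeR). MLOC_43332 had 8.33 and 13.0 CPM in control roots, against 439, 473 and 484 in control shoots (log2 -5.45, SE 0.262). MLOC_61723 had 3.37 and 2.97 CPM in control roots, against 86.1, 78.2 and 92.6 in control shoots (log2 -4.75, SE 0.181). In all 3 genes the shoot libraries were far above the root libraries, and the genes stayed lower in heated roots than in heated shoots.

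The remaining genes that were higher in control roots ran down to MLOC_8215 with a log2 difference of 0.64, and included MLOC_59252 (2.73), MLOC_36734 (2.42), MLOC_38517 (2.41) and MLOC_7811 (2.03). The remaining genes that were lower ran up to MLOC_54544 with -0.61, and included MLOC_150 (-4.29), MLOC_54205 (-3.34), MLOC_56441 (-3.07), MLOC_11896 (-2.89), MLOC_68718 (-2.35) and MLOC_65304 (-2.16). The 15 genes that were not called had log2 differences from -0.51 (MLOC_63543) to 0.36 (MLOC_33315). A difference that is not called does not show that the tissues had equal levels.

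**Figure D4:**
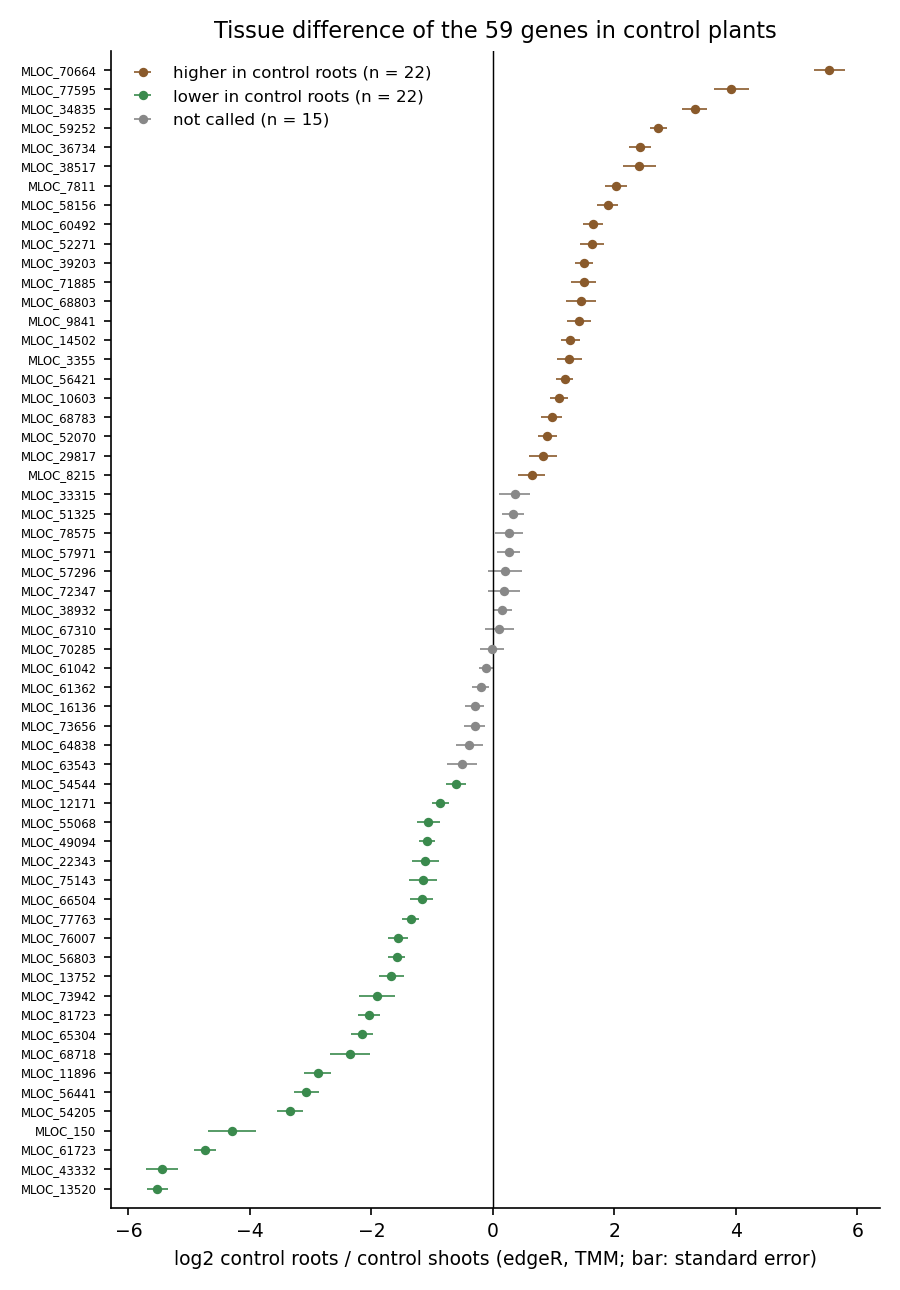
The log2 difference of control roots over control shoots (x axis; points with bars of 1 standard error, edgeR after TMM scaling) is shown for the 59 genes, colored by the call at an adjusted p under 0.05. The genes run from 5.54 for MLOC_70664 to -5.53 for MLOC_13520, with 22 called in each direction and 15 not called.

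The heat ratios of the sets that this contrast separates are given without a test, since the rule holds them all at or below 0.4. The 22 genes higher in control roots were at a median of 26.2% of control in roots and 30.5% in shoots. The 22 genes lower in control roots were at a median of 25.03% in roots and 24.6% in shoots, and the 15 genes not called at 30.8% and 29.97%. The ratio was lower in roots than in shoots for 16 of 22, 13 of 22 and 9 of 15 genes of these sets.

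In heated plants the same model gave 21 of the 59 genes higher in heated roots than in heated shoots, 27 lower and 11 not called. Of all 19016 genes tested, 7420 were higher and 7027 lower in heated roots. Of the 10648 genes with a control mean of at least 50 in both tables, 3454 were higher and 4418 lower. The rule used the heat means of both tissues, so nothing is read from the numbers of calls in heated plants. Of the 22 genes higher in control roots, 18 were also higher in heated roots. Of the 22 genes lower in control roots, 21 were also lower in heated roots. The remaining gene of the second set was MLOC_11896, and 2 genes of the first set, MLOC_29817 and MLOC_52070, were called lower in heated roots. These 3 genes were also among those with the largest differences between the falls in roots and shoots, and that part of the pattern follows from the heat ratios given above.

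Replicate libraries of one group spread more widely over the 59 genes than over the larger set that they were drawn from. The median SD of log2(normalized count + 1) within a group, pooled over the 4 groups, was 0.28 for the 59 genes and 0.15 for the 10648 genes with a control mean of at least 50 in both tables whose reads were recovered. By group the median SD was 0.17 against 0.10 in heated roots, 0.22 against 0.11 in control roots, 0.27 against 0.13 in heated shoots and 0.25 against 0.12 in control shoots. The 59 genes also had fewer reads in heat, with a median of 133 normalized counts in heated roots and 38.6 in heated shoots, against 507 and 249 for the 10648 genes. In control plants their median was 557 in roots, against 482 for the 10648 genes, and 172 in shoots, against 241. The rule used means of these same libraries, and a ratio of means of few libraries can pass a limit more easily where libraries spread widely. The parts of the selection and of the lower counts in the wider spread were not tested.

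The pooled SD was lowest for MLOC_16136 (0.12) and highest for MLOC_150 (0.64). MLOC_16136 had 67.9 and 70.5 normalized counts in heated roots, against 168 and 201 in control roots, and 34.9, 30.2 and 32.1 in heated shoots, against 91.7, 102 and 87.7 in control shoots. It fell by nearly the same proportion in both tissues, to 37.9% of control in roots and 35.3% in shoots. MLOC_72347 had 1061 and 532 normalized counts in heated roots, against 3384 and 1793 in control roots, so that its libraries of one condition differed by a factor of about 2 while the conditions stayed apart.

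Some libraries stood above the others of their group over many of the 59 genes. The heated shoot library with the size factor of 0.871 was above the group mean for 45 of 59 genes and the highest of its group for 39, with a median deviation of 0.20 on the log2 scale, against 0.003 over the 10648 genes. Of the 10648 genes, it was above the group mean for 5415 and the highest for 4091. In control roots the library with the size factor of 1.16 was the higher one for 39 of 59 genes, and for 5039 of the 10648. In control shoots the library with the size factor of 1.10 was above the group mean for 40 of 59 genes, with a median deviation of 0.10, and for 5153 of the 10648. Without the heated shoot library of 0.871, 64 genes met the rule, and 58 of the 59 genes were among them. The median of the 59 genes in shoots was then 25.8% of control.

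**Figure D5:**
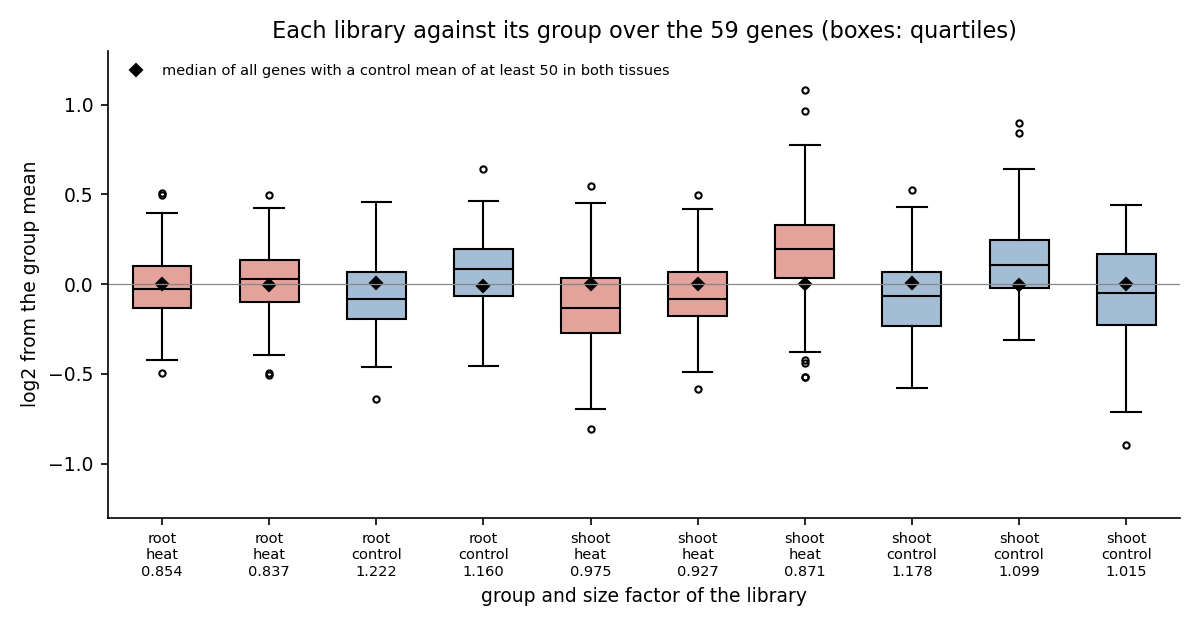
For each library, named by its group and size factor on the x axis, the box gives the median and quartiles over the 59 genes of the log2 deviation from the group mean (y axis), whiskers reach to 1.5 times the box height and diamonds mark the median of all genes with a control mean of at least 50 in both tissues. The heated shoot library of 0.871 has its box above 0, with a median of 0.20, while all diamonds lie near 0.

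The depth limits the values of 5 genes, MLOC_150, MLOC_11896, MLOC_64838, MLOC_78575 and MLOC_68718, which had fewer than 10 reads in at least 1 library. All 59 genes had at least 1 read in every library. For the other 54 genes the falls rest on 10 or more reads in each library.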

How the data were processed

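Strand-specific libraries of poly(A) RNA from heated and control roots (2 each) and shoots (3 each) were sequenced. Per the paper's methods, the authors aligned clean reads to the barley genome of Ensembl Plants (TopHat2), obtained gene counts (HTSeq) and compared heat with control within each tissue (DESeq). Tool versions and the strand setting of the counting are not given in the sources used. The deposited tables hold a signal value per gene and group, which is a mean of normalized counts in which the reads of a library were divided by its size factor. They also hold the authors' fold change, log2 fold change, p-value and adjusted p-value, which were not used, nor were the tables cut to genes with a low adjusted p. Rows without a gene, such as reads outside genes, held 60.4% to 67.7% of the normalized reads and were left out. The tables of the tissues were normalized separately.

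A group mean of normalized counts is a sum of whole reads with fixed weights. The size factors were found from the smallest means, and the means were then searched for splits into whole reads, with a relative tolerance of 2e-14. All root means above 0 were split. In shoots every split was listed for means up to 5000, only splits with libraries of similar level were searched up to 10000, and means above 10000 were not searched. These 205 heated and 156 control means held 55.3% and 48.5% of the normalized shoot reads in genes. They were left out of tests across tissues, and CPM is scaled to the reads of the genes tested. The size factors were 0.854 and 0.837 for heated roots, 1.22 and 1.16 for control roots, 0.975, 0.927 and 0.871 for heated shoots and 1.18, 1.10 and 1.02 for control shoots.

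The tissues were compared with edgeR 4.0.16 (glmQLFTest, TMM, filterByExpr, all 10 libraries in 4 groups) in R 4.3.3, with DESeq2 1.42.0 and limma 3.58.1 as alternatives. Other ratio limits, control minimums, pseudocounts and scalings were also tried, and each library was left out in turn. The scripts were tested on simulated data. The methods call the samples biological replications. The p-values weigh the difference between tissues against the spread between replicates, which was estimated from all 10 libraries. The members and the rules were chosen with earlier results of these data known. Genes named are, for each tissue, the 6 with the lowest ratio and the 4 with the highest control mean, the 3 with the largest differences between control tissues in each direction, the 3 with the largest differences between ratios in each direction, and the 2 on either side of each limit. The phosphate genes of the study and Hsp90.1 were named in addition, and other genes were chosen after their values were seen.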

Additional observations from a re-analysis of the deposited data

Results flagged for a closer look

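For 3 of the 59 genes the order of the tissues in heated plants was opposite to that in control plants, with all root libraries on one side of all shoot libraries in both conditions. MLOC_11896 was higher in heated roots than in heated shoots, with a log2 difference of 1.60, and lower in control roots than in control shoots, with -2.89. MLOC_29817 was lower in heated roots (-2.31) and higher in control roots (0.83). MLOC_52070 was likewise lower in heated roots (-0.91) and higher in control roots (0.89). The difference between the conditions was not tested, because it is the same as the difference between the heat ratios of the tissues that the selection of the genes used. In CPM, MLOC_11896 had 1.12 and 0.930 in heated roots and 0.157, 0.164 and 0.699 in heated shoots, against 4.14 and 2.86 in control roots and 25.3, 27.1 and 25.6 in control shoots. Its heated shoot values rest on 1, 1 and 4 reads.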

How the results depend on the processing

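The number of genes lowered in both tissues was 59, and it was 26 with a largest ratio of 0.3, 153 with 0.5, 105 with a least control mean of 20 and 37 with 100. With the libraries scaled to their total reads in genes it was 157, all 59 genes included. This scaling shifts log2 ratios by about -0.48 in roots and -0.23 in shoots. Total normalized reads in genes in heat were 1.40 times those of control in roots and 1.17 times in shoots. Without 1 library at a time the number of genes was 51 to 68, and at least 49 of the 59 genes were kept. The median percent of control of the 59 genes was 19.3% in roots and 24.8% in shoots after scaling to total reads, and 28.9% and 32.7% with a pseudocount of 10. Without 1 library it was 23.0% to 28.6% in roots and 25.8% to 30.4% in shoots. Between control roots and control shoots, scaling to total reads gave 39 of the 59 genes higher and 10 lower. Of all 19016 genes tested, 13911 were then higher and 3455 lower. This scaling changed 27 of the 59 calls and turned 2 round. Leaving out 1 library gave 22 to 24 of the 59 genes higher and 21 to 23 lower. DESeq2, DESeq2's size factors in edgeR, the control libraries alone and no filter on low counts changed none of the 59 calls, and limma changed 1. A pseudocount of 0 (62 genes) or 10 (43 genes) and TMM scaling within each tissue (59 genes) moved the number of genes by less than 1.5 times. No paired analysis was possible because the recovered libraries carry no replicate letter. With 2 or 3 libraries a group, a library that stands apart weighs heavily, and in heated shoots low genes rest on few reads.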
